A study of Mus musculus with 6 samples.

Results

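A set of 10 genes of lysosomal proteolysis was examined across the C5a experiment: the cysteine cathepsin genes Ctsb, Ctsc, Ctsh, Ctsl, Ctss and Ctsz, the aspartic cathepsin gene Ctsd, the serine carboxypeptidase gene Ctsa, the legumain gene Lgmn and Cst3, which encodes the inhibitor cystatin C. They were found as the array probes whose RefSeq accession names one of these genes, which gave 13 of the 56605 probes and covered all 10 genes, of 22911 genes named on the array. The cells were C5aR+ LysoDCs, lysozyme-expressing mononuclear phagocytes of mouse Peyer's patch, sorted after bead enrichment for CD11c and kept in medium with CSF-1 and a second factor spelled CFS-2 in the labels. One group was given 100 nM recombinant C5a for 3 h (3 samples, called C5a 1 to 3 after the numbers in their labels). The other was left at 0 nM C5a (3 samples, untreated 1 to 3). The sources used here give neither the culture time of the untreated cells nor the strain, age or sex of the mice. All samples came from the same gate and carried no stated genetic change. The labels do not say whether the numbered samples were separate animals or preparations, so the spread behind each p-value may be technical. In such bulk samples fewer cells of a type and less RNA per cell cannot be told apart.

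Cathepsins are made as inactive precursors, sorted to endosomes and lysosomes, and activated there at acid pH. In antigen-presenting cells they cut ingested proteins into peptides and remove the invariant chain from MHC class II molecules, the step for which cathepsin S is best known. Legumain cuts after asparagine and trims several cathepsins to their mature form, and cystatin C is a small secreted inhibitor that blocks papain-like cathepsins.

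The 6 arrays lay on 1 slide, with the 3 untreated arrays and C5a 1 in slide row 1 and C5a 2 and 3 in slide row 2. Of the probes, 3668 to 6651 were well above background on the C5a arrays and 2728 to 6959 on the untreated arrays. Of the 12 phagocyte markers listed, 11 were well above background on at least 3 arrays, among them Lyz1, Lyz2, Itgax and Csf1r on all 6, while Cx3cr1 was so on 0. C5ar1, the receptor of the sort gate, was well above background on 2 C5a arrays and 1 untreated array. The summed level of the 12 markers was 5.788 to 6.128 in C5a samples and 6.132 to 6.420 in untreated samples (log2, scaled as below). The groups did not overlap, though their nearest values, 6.128 and 6.132, were close, and the contrast was not tested. Of single measured genes, 5.7% did not overlap. The stromal and endothelial sum did not overlap either (C5a -1.333 to -0.815, untreated -0.518 to -0.230), and its only marker well above background was Acta2. The sums of the other marker lists overlapped. The phagocyte sum, taken over unlogged levels, rests chiefly on the brightest markers H2-Eb1, H2-Ab1 and Cd74 (4.999, 4.045 and 3.365 on C5a 1). Cd3d, Cd3e and Cd3g of T cells, Cpa3 and Kit of mast cells, Epcam and Krt8 of epithelium, and the dendritic cell genes Flt3 and Zbtb46 were each well above background on 0 arrays, whereas Il7r, Cd79b, Xbp1, Csf3r and Acta2 were so on at least 3. So were 3 of the 8 dendritic cell markers (Ccr7, Siglech and Tcf4) and 4 of the 9 tissue macrophage markers (Adgre1, C1qa, C1qb and C1qc).

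Promoter windows of the genes are shown first because lysosomal genes are widely described as sharing an E-box bound by TFEB and its relatives, and the letters allow a direct look. RefSeq (GRCm38.p6) gave 10 windows for 8 of the 10 genes, with Ctsb and Ctsh not in that table. In the 250 bases before the annotated start, read on both strands, the E-box core CACGTG stood in 4 of the 10 windows, belonging to Ctsa, Ctsd, Ctsl and Lgmn, and in 6.02% of all 32851 windows of this length. The longer palindrome TCACGTGA, which contains that core, stood in 2 of the 10 (Ctsa and Ctsd) and in 0.785% of all windows. A match is a description of these letters and not a measured binding site. The 4 windows below are those with the longer palindrome (Ctsa and Ctsd), that of Lgmn with the core alone, and that of Ctss, a bright gene whose window holds neither. Capitals mark CACGTG or TCACGTGA, and each sequence runs 5′ to 3′ on the strand of the gene.
Ctsa (chr2:164833523-164833772, + strand): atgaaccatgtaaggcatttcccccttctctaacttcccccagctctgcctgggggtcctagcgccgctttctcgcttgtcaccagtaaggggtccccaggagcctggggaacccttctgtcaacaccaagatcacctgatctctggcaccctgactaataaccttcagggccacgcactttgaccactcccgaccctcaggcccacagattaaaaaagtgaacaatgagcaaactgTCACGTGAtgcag
Ctsd (chr7:142387828-142388077, - strand): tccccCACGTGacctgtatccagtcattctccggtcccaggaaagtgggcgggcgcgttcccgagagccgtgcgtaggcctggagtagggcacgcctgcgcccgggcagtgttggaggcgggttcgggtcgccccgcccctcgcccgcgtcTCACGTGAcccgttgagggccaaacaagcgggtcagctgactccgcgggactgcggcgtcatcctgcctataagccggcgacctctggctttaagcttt
Lgmn (chr12:102439093-102439342, - strand): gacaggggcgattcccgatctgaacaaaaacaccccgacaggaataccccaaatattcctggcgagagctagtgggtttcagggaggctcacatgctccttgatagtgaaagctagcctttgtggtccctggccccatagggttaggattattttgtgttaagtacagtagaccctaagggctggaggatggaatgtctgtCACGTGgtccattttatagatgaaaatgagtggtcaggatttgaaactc
Ctss (chr3:95526536-95526785, + strand): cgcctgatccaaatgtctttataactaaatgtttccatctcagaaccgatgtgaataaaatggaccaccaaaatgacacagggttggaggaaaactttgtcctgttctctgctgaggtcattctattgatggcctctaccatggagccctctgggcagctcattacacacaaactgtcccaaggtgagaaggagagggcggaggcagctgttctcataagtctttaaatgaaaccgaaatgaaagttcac
The Ctsd window holds the core at 2 places, whose first bases lie 245 and 98 bases before the start, and the Ctsa window at 1 place, 12 bases before it. The other window of Ctsa and the other window of Lgmn hold none.

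All 10 genes gave signal above background in LysoDCs, and none differed between C5a and untreated samples beyond the spread between samples. Each of the 10 had a probe well above background on at least 5 of 6 arrays, and 9 had one on all 6, Ctsc on C5a 3 being the exception. In limma with Benjamini-Hochberg adjustment over 4488 measured genes, 0 of the 10 were called (adjusted p = 0.999 for each), where 0% of all measured genes were. At an unadjusted p under 0.05 there were also 0 of the 10, against 2.36% of all measured genes. The C5a and untreated values overlapped for every one of the 10 genes, whereas the groups did not overlap for 5.7% of all measured genes (3.39% higher with C5a and 2.32% lower). Of the 10 differences, 5 were positive and 5 negative, with a median of -0.01, beside a median of 0.04 over all measured genes, of which 54.9% were positive. Scaled over all probes instead, all 10 differences were positive, with a median of 0.35 where that of all measured genes was 0.40. The measured genes include 1212 probes without a gene name, each counted as a gene. Levels here are log2 processed signal less the array's 75th percentile over probes detected on all arrays, and differences are C5a minus untreated on that scale.

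**Figure D1:**
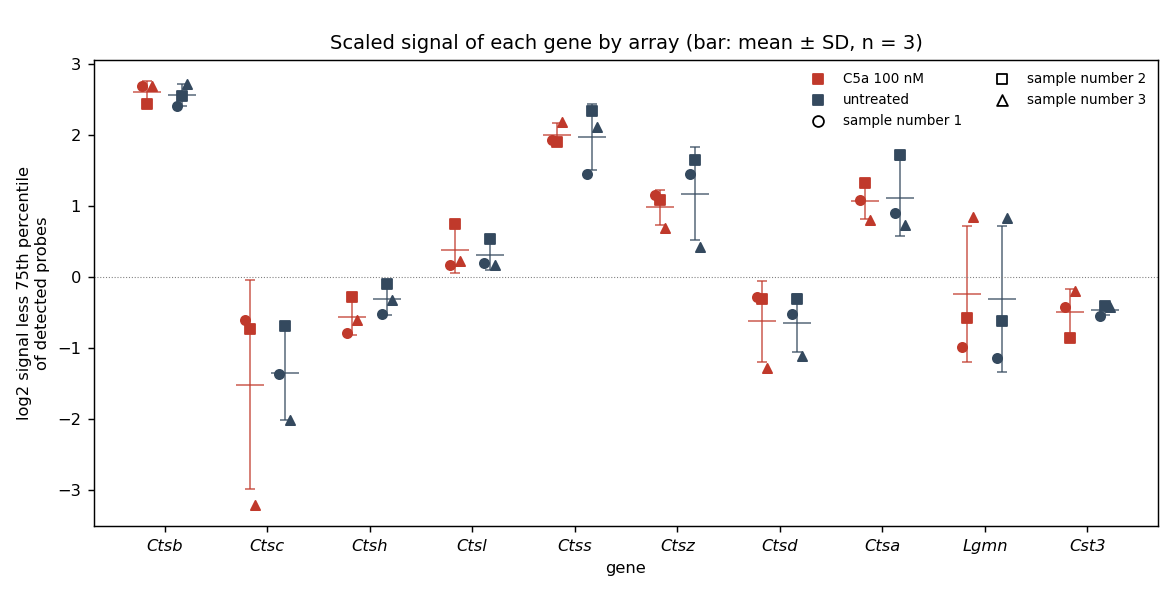
Scaled log2 signal (vertical axis) of the 10 genes (horizontal axis) on each array, C5a samples in red left of untreated samples in dark grey, with a marker shape for each sample number and bars for mean ± SD (n = 3). Ctsb lay between 2.41 and 2.72 on all 6 arrays, whereas Ctsc spread from -3.20 to -0.60 and Lgmn from -1.14 to 0.84.

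Among the endopeptidases of the papain family, Ctsb varied least of the 10 genes over the arrays. Ctsb, an abundant lysosomal cathepsin that cuts both inside and at the end of proteins, had raw processed signals of 1642.5, 2032.2 and 995.8 in C5a 1 to 3, against 866.1, 2698.9 and 717.7 in untreated 1 to 3. The raw signals followed the overall brightness of the arrays, whose 75th percentile over detected probes ranged 4.23-fold. After scaling, Ctsb was at 2.70, 2.43 and 2.69 in C5a 1 to 3 and at 2.41, 2.55 and 2.72 in untreated 1 to 3, and the groups overlapped. Its difference was 0.05 (SE 0.25, 95% interval -0.55 to 0.64), so that under this scaling a change of over 1.56-fold in either direction lay outside the interval. Scaled over all probes instead, the difference was 0.41 with a far wider SE of 0.84. That fit gave each of the 10 genes this same SE, so it does not describe the spread of Ctsb alone. Its SD over the 6 arrays was 0.14, lower than that of all but 2.99% of the measured genes.

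Ctss encodes cathepsin S, which remains active at neutral pH and finishes the removal of the invariant chain. It was at 1.93, 1.90 and 2.19 in C5a 1 to 3 and at 1.45, 2.34 and 2.12 in untreated 1 to 3. The lowest and the highest value both belonged to untreated samples. The difference was 0.03 (SE 0.32, 95% interval -0.71 to 0.78). Cd74, the invariant chain gene and thus the substrate's gene, differed by -0.20 (SE 0.28).

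Ctsl encodes the endopeptidase cathepsin L and was the gene whose measurement error within an array could be seen, since its probe is printed in 10 spots. It was at 0.17, 0.74 and 0.22 in C5a 1 to 3 and at 0.20, 0.54 and 0.17 in untreated 1 to 3, with sample number 2 the highest in both groups. Its difference was 0.07 (SE 0.29, 95% interval -0.60 to 0.75). The SD over the 10 spots, in log2 processed signal, was 0.58, 0.06 and 0.10 on C5a 1 to 3 and 0.57, 0.38 and 0.45 on untreated 1 to 3. Between arrays, whose values are means over the spots, the SD was 0.32 in C5a and 0.21 in untreated samples. On C5a 1 the spots ran from 107 to 429 processed signal, a 4.02-fold range, with no outlier mark on any of them. On untreated 1 they ran from 66.3 to 244, again unmarked, and on untreated 3 the lowest spot, at 48.3, was marked and left out, after which the SD over spots there was 0.15. The scanner software's own figure, the median coefficient of variation over repeated probes, was 20.1%, 6.20% and 10.3% on C5a 1 to 3 and 12.9%, 13.6% and 16.8% on untreated 1 to 3. All other probes of the set are single spots, for which this error is part of each value.

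**Figure D2:**
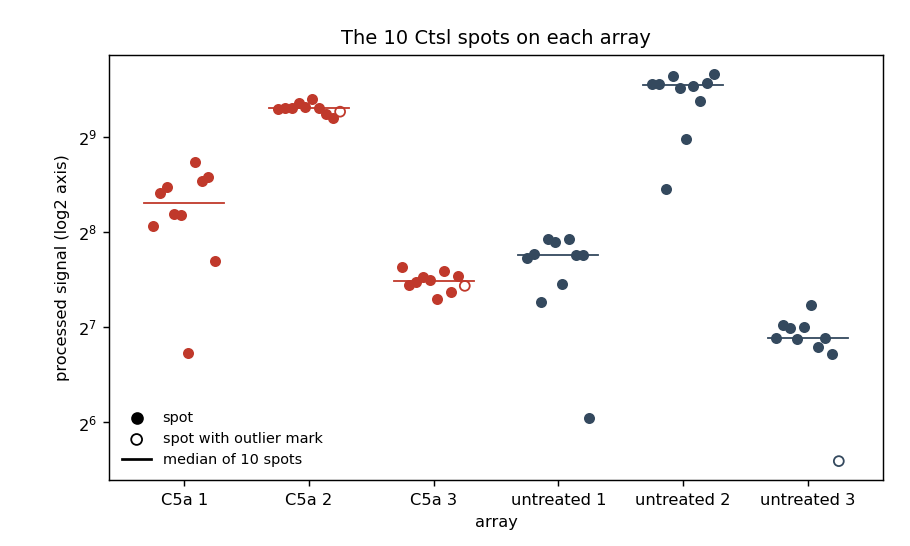
Processed signal (vertical axis, log2 scale) of the 10 Ctsl spots on each array (horizontal axis), C5a arrays in red and untreated arrays in dark grey, with filled points for spots without an outlier mark, open points for marked spots and a line for the median. The spots sat within 591 to 679 on C5a 2 but ran from 107 to 429 on C5a 1.

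The exopeptidases of the papain family had negative differences under the scaling used here and positive ones when scaled over all probes, none past the test. Ctsz, a carboxypeptidase also called cathepsin X, was at 1.16, 1.09 and 0.70 in C5a 1 to 3 and at 1.45, 1.65 and 0.43 in untreated 1 to 3. Sample number 3 was the lowest of each group. Its difference was -0.19 (SE 0.38, 95% interval -1.10 to 0.71).

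Ctsh, an aminopeptidase, had the smallest p of the 10 (unadjusted p = 0.401, limma), and stood at place 1396 of the 4488 genes ordered by p. It was at -0.79, -0.28 and -0.60 in C5a 1 to 3 and at -0.52, -0.09 and -0.32 in untreated 1 to 3, a difference of -0.25 (SE 0.28, 95% interval -0.90 to 0.40). Each C5a sample was below the untreated sample of its own number, by 0.27, 0.19 and 0.28, while the groups as wholes overlapped. Over all measured genes, 25.2% had the same sign in all 3 same-numbered pairs, and of the 10 genes only Ctsh and Lgmn did. With the replicate number as a block the SE of Ctsh was 0.21 (limma unadjusted p = 0.286, adjusted p = 0.927). In that fit 0 of the 10 genes had an unadjusted p under 0.05, against 4.26% of all measured genes.

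The Ctsh accession is carried by several probes, of which the others were dimmer and less often detected. The second kept probe (A_66_P124326), well above background on 2 arrays of each group, was at -3.93, -3.59 and -4.09 in C5a 1 to 3 and at -4.12, -2.92 and -2.95 in untreated 1 to 3, a difference of -0.54 (SE 0.39). The remaining probe (A_51_P277792), well above background on 1 array of each group and not tested, had means of -4.82 in C5a and -4.92 in untreated samples. Its difference, 0.10, was positive, unlike those of the kept probes. Only the brightest probe was lower with C5a in every same-numbered pair. In pairs 1 to 3 the second kept probe differed by 0.19, -0.68 and -1.14, and the remaining probe by 0.79, -0.52 and 0.01. With normexp background correction on median signals, added after seeing the data, the differences of the 3 probes were -0.04, -0.37 and -0.28, all negative. Since the brightness of a probe also depends on its sequence, an order of probe signals is not an order of transcript numbers.

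Ctsc encodes dipeptidyl peptidase I, which activates granule serine proteases, and was the most variable of the set. It was at -0.60, -0.73 and -3.20 in C5a 1 to 3 and at -1.37, -0.69 and -2.01 in untreated 1 to 3. Sample number 3 was the lowest of each group, and on C5a 3 the probe was not well above background. The difference was -0.16 (SE 0.73, 95% interval -1.89 to 1.57), and without C5a 3 it was 0.69 (SE 0.44), on the other side of 0. The interval reaches to a 3.70-fold lower and a 2.98-fold higher level, the widest of the set.

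The proteases of other catalytic types gave differences close to 0. Ctsd, the main aspartic protease of lysosomes, was at -0.28, -0.31 and -1.28 in C5a 1 to 3 and at -0.52, -0.31 and -1.11 in untreated 1 to 3. Sample number 3 was again the lowest of each group, and the difference was 0.02 (SE 0.38, 95% interval -0.88 to 0.93). Ctsa, which trims peptides and also shields the sialidase Neu1 and beta-galactosidase in a complex, was at 1.09, 1.32 and 0.81 in C5a 1 to 3 and at 0.90, 1.72 and 0.73 in untreated 1 to 3. Its difference was -0.04 (SE 0.35, 95% interval -0.86 to 0.78).

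Lgmn followed the sample number far more closely than the treatment. It was at -0.98, -0.57 and 0.84 in C5a 1 to 3 and at -1.14, -0.62 and 0.84 in untreated 1 to 3. Both samples of number 3 were the highest, and same-numbered samples differed by 0.16, 0.05 and 0.01. The difference between the groups was 0.07, with an SE of 0.65 (95% interval -1.46 to 1.61), and with the replicate block an SE of 0.21 (95% interval -0.47 to 0.61, limma adjusted p = 0.980).

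Cst3 was measured by 2 probes that were both well above background on all 6 arrays. The brighter one (A_66_P116390) was at -0.43, -0.85 and -0.20 in C5a 1 to 3 and at -0.54, -0.41 and -0.42 in untreated 1 to 3, a difference of -0.04 (SE 0.28, 95% interval -0.69 to 0.62). The other (A_51_P332201) was at -1.18, -0.91 and -0.37 in C5a 1 to 3 and at -0.63, -0.65 and -0.73 in untreated 1 to 3, a difference of -0.15 (SE 0.30, 95% interval -0.84 to 0.55). Both differences were negative and within 1 SE of 0. In both probes the untreated samples lay close together (SD 0.08 and 0.05) and the C5a samples spread more (SD 0.33 and 0.41), a contrast in spread that was not tested. The brighter probe exceeded the other by 0.06 to 0.75 on the same array, or 1.21-fold on average.

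**Figure D3:**
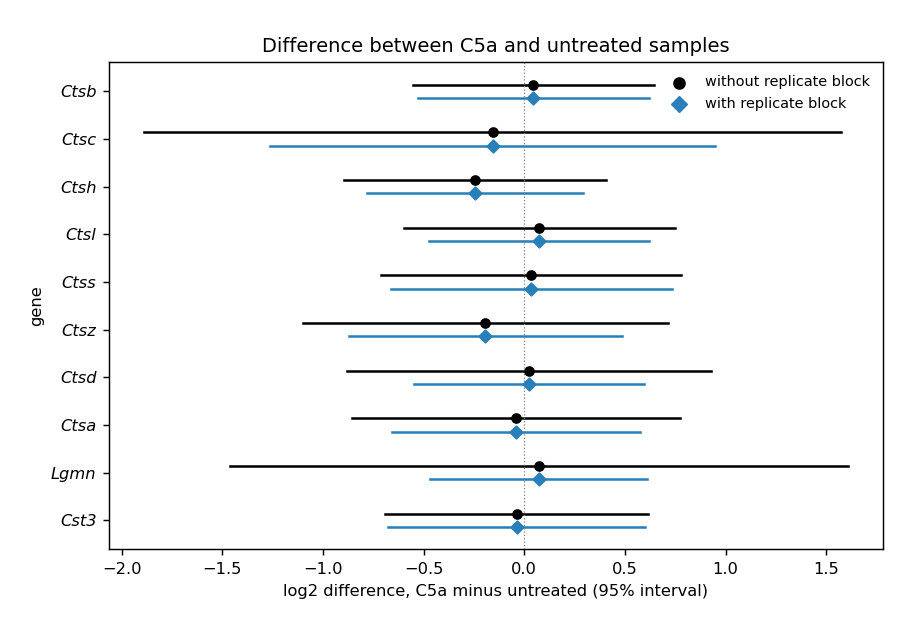
Log2 difference, C5a minus untreated (horizontal axis), with its 95% interval for each of the 10 genes (vertical axis), without the replicate block in black and with it in blue. All intervals include 0, and that of Lgmn shrank from the widest but one to -0.47 to 0.61 with the block.

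The signal of each protease gene was also set against that of Cst3 within each array, where the scaling cancels. The brighter Cst3 probe was used, and a difference of probe signals is not a balance of proteins. Ctsd and Ctsa are not of the papain-like type that cystatin C blocks. Relative to Cst3 on the same array, Ctss was at 2.36, 2.75 and 2.39 in C5a 1 to 3 and at 2.00, 2.75 and 2.53 in untreated 1 to 3, a change of 0.07. Ctsb relative to Cst3 was at 3.12, 3.28 and 2.90 in C5a 1 to 3 and at 2.95, 2.96 and 3.14 in untreated 1 to 3, a change of 0.08. With the mean of a gene's kept probes, the change over the 9 proteases ran from -0.30 for Ctsh to 0.17 for Ctsl. With the brightest probe, as above, it ran from -0.21 for Ctsh to 0.11 for Ctsl, and the groups overlapped in all 9. Leaving out 1 sample moved these changes widely: that of Ctsc was -0.69 without C5a 2 and 0.87 without C5a 3, that of Ctsl -0.25 without C5a 2, and that of Lgmn 0.66 without untreated 3 and -0.29 without C5a 3.

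Ranked by probe signal within each array, Ctsb was first and Ctss second of the 10 on all 6 arrays. Among all measured genes their probes lay at percentiles 97.9 to 98.5 and 95.7 to 98. Ctsa and Ctsz, at ranks 3 to 5, changed places between arrays, with a gap of 0.02 ± 0.31 (mean ± SD over 6 arrays), so that these neighbours did not differ beyond their spread. Ctsl followed at rank 5 or 6. Ctsh, Cst3 and Ctsd shared ranks 6 to 10, with gaps of 0.04 ± 0.38 and 0.16 ± 0.60 between neighbours, and were not separable either. Ctsc ranked between 8 and 10, while Lgmn moved between rank 3 and rank 10.

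The order of the genes tracked the sample number. Array brightness went with the number as well, number 2 being the brightest and number 3 the dimmest in both groups. The 75th percentile over detected probes was 254, 377 and 154 on C5a 1 to 3. It was 163, 459 and 109 on untreated 1 to 3. The first 6 places were the same in C5a 1 and untreated 1, the first 7 in C5a 2 and untreated 2, and the first 6 in C5a 3 and untreated 3. Between a C5a and an untreated array of different numbers the order was the same for the first 2 places and differed at the next, although single genes further down could share a place. In number 3 of each group Lgmn stood at rank 3.

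**Figure D4:**
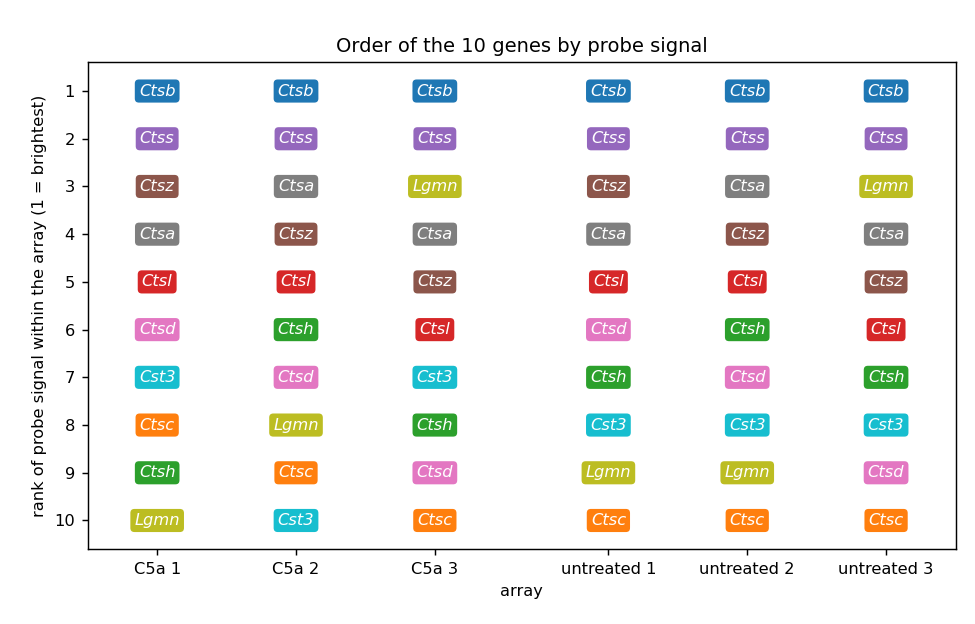
Rank of each gene by probe signal within an array (vertical axis, 1 = brightest) for the 3 C5a arrays and the 3 untreated arrays (horizontal axis). Ctsb and Ctss held ranks 1 and 2 on all 6 arrays, and Lgmn stood at rank 3 on both arrays of number 3 and between 8 and 10 on the others.

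Sample number 3 was set against the mean of numbers 1 and 2 in each group to describe this. Lgmn was higher there by 1.62 in C5a and 1.72 in untreated samples. Ctsc, Ctsd and Ctsz differed most the other way, by -2.54, -0.98 and -0.43 in C5a and by -0.98, -0.69 and -1.13 in untreated samples. Ctsa was lower by nearly as much as Ctsz in C5a (-0.40, and -0.58 in untreated samples), and Ctsl and Ctsh were lower by less. All 10 genes had the same sign in both groups, as did 68.7% of all measured genes. Of all measured genes, 2.36% were at least 1 higher in number 3 in both groups, like Lgmn, and 4.21% at least 1 lower. The labels do not say what the number stands for, and array brightness went with it. The part of either in these values was not tested further.

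**Figure D5:**
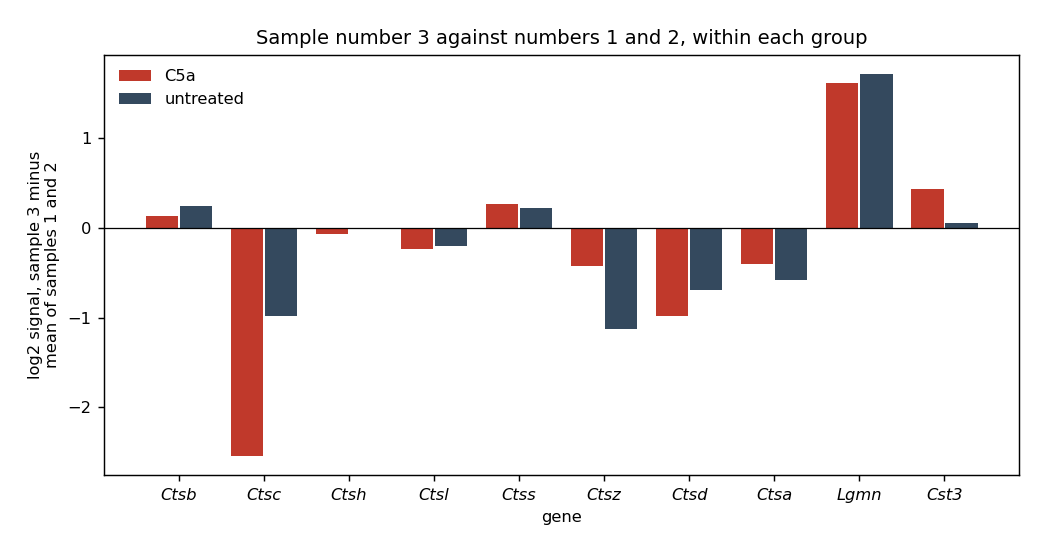
Log2 signal of sample number 3 minus the mean of numbers 1 and 2 (vertical axis) for each gene (horizontal axis), C5a in red and untreated in dark grey, 1 bar per group with no error since each is 1 sample against 2. Lgmn stood out upward (1.62 and 1.72). Ctsc was the lowest in C5a (-2.54), where its probe on C5a 3 was not well above background, and Ctsz the lowest in untreated samples (-1.13, beside -0.98 for Ctsc).

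The genes whose scaled signal ran closest to the mean profile of the 9 cathepsin-set genes detected on all arrays were Mif, Cnppd1, Tpm3, probe A_55_P2090698 and Jund. Likeness was the root mean square distance over the 6 arrays after centring each gene, and it was 0.05 for Mif and 0.07 for Jund. The mean profile itself was nearly flat, from -0.18 on untreated 1 to 0.23 on untreated 2, so that closeness to it chiefly marks genes that varied little. Ctsh, Ctsb, Ctsl and Ctss were at distances of 0.16 to 0.19 from this profile, Cst3 and Ctsa at 0.22 and 0.26, Ctsd and Ctsz at 0.41 each, Lgmn at 0.80 and Ctsc, which is not part of the profile, at 0.92.

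Other genes of cathepsin biology likewise gave no call in limma with Benjamini-Hochberg adjustment over all measured genes (0 of 28 measured, of 73 listed, where 0% of all measured genes were called). Their median difference was 0.11, with 17 positive and 11 negative. Over all measured genes 54.9% were positive, the share against which the signs in each list below are to be read. None of 10 further papain-family genes, among them Ctsk, Ctsf, Ctso and Ctsw, was measured, since no probe of theirs was well above background on 3 arrays.

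Of the other lysosomal aspartic and serine peptidases, 6 of 10 were measured and 4 had a negative difference (median -0.24). Rnpep, an aminopeptidase of the zinc type and so no typical member of that list, was the only 1 of the 28 with an unadjusted p under 0.05 and with groups that did not overlap (5.7% of all measured genes). It was at -4.46, -3.93 and -3.51 in C5a 1 to 3 and at -3.17, -3.42 and -2.33 in untreated 1 to 3, a difference of -0.99 (SE 0.40, limma unadjusted p = 0.0409, adjusted p = 0.999), and was well above background on 1 C5a and 3 untreated arrays. Dpp7, Prcp and Scpep1 differed by -0.43 (SE 0.41), 0.65 (SE 0.50) and 0.04 (SE 0.58). Prcp was well above background on 2 C5a arrays and 1 untreated array.

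Of 21 further cystatins and cathepsin inhibitors 4 were measured, all with positive differences that did not pass. Cstb, the cytosolic inhibitor cystatin B, was at 0.98, 0.66 and 0.74 in C5a 1 to 3 and at 0.93, 0.42 and 0.28 in untreated 1 to 3, a difference of 0.25 (SE 0.29). Serpinb9, an intracellular serpin, differed by 0.45 (SE 0.42).

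Among 7 measured partners of cathepsins, Neu1, the sialidase that depends on the Ctsa protein, was at -2.21, -2.58 and -2.18 in C5a 1 to 3 and at -3.25, -2.52 and -3.12 in untreated 1 to 3. Untreated 2 lay within the C5a range, and the difference was 0.64 (SE 0.30, limma unadjusted p = 0.0736, adjusted p = 0.999). Ifi30, the thiol reductase that opens disulfides ahead of cathepsin cleavage, differed by -0.28 (SE 0.30), and H2-DMb1, a chain of the class II peptide exchanger, by 0.21 (SE 0.36).

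Of 6 measured sorting genes, 5 had positive differences. M6pr, the small mannose 6-phosphate receptor that carries cathepsins to the lysosome, was at -0.54, -1.09 and -5.41 in C5a 1 to 3 and at -0.99, -0.51 and -0.55 in untreated 1 to 3, so that its difference of -1.66 (SE 1.18) rested on C5a 3. Its probe was well above background on only 2 C5a arrays and on 3 untreated arrays, so the size of this difference is not a measured level. Vps26a and Gga3, parts of retrograde and forward transport, differed by 0.24 (SE 0.28) and 0.40 (SE 0.60). Of 10 listed transcription factors 5 were measured, and Tfeb was not one of them. Ciita, the class II transactivator, differed by -0.55 (SE 0.53) and Tfec by -0.20 (SE 0.66). Irf8 differed by 0.33 (SE 0.52) and Mitf by 0.21 (SE 0.41), and none passed the test. Gga3, Tfec and Irf8 were each well above background on 2 C5a arrays and 1 untreated array.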

How the data were processed

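Per the file headers, 6 one-colour (Cy3) Agilent arrays of design 074809 were read with Feature Extraction 10.10.1.1. Deposited values per spot are intensity (the processed signal, already corrected for background by that software) and flags. The deposited series table holds log2 values: 99.1% of differences between its columns lay within 0.01 of those in log2 processed signal less the 75th percentile over all probes. This settles scale and direction, while the value subtracted from each probe stays unknown. The medians of its columns were 0.01, -0.02 and 0.22 for C5a 1 to 3 and 0.17, -0.08 and 0.18 for untreated 1 to 3.

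Controls were removed first. For a probe printed in several spots, the value was the mean of those without an outlier mark. Where a probe had no unmarked spot, as with a marked single spot, its marked signal was used. No spot was saturated. A probe was kept when well above background (on at least 0.5 of its spots) on 3 or more of 6 arrays, which left 4958 probes. Each array was scaled by its 75th percentile over the 2371 probes detected on all arrays. Accessions were named through RefSeq (GRCm38.p6), which matched 32994 of 56605 probes. The brightest kept probe stood for a gene, and a kept probe without a gene name was counted as a gene of its own. This gave 4488 measured genes, 3276 of them named and 1212 known by probe only. Groups were compared with limma 3.58.1 in R 4.3.3 (tested on simulated data), with Benjamini-Hochberg adjustment and a threshold of 0.05. The number of arrays limits the precision.

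The members and lists were chosen with earlier results of these data known. All members were named, and per list the 2 genes with the smallest p in each direction. Same-numbered samples deviated together (correlations of 0.21, 0.27 and 0.38 over 4488 genes), so the numbers were taken as pairs in the replicate block, a fit run beside the one without it. The other alternatives were scaling, background correction, filter, choice of probe or spots, slide row and leaving out samples. A normexp correction had been planned on mean signals, but the scanner files used here hold no mean signal column. It was run on median signals instead, which is counted as an alternative added after seeing the data.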

Additional observations from a re-analysis of the deposited data

How the results depend on the processing

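With the replicate block, limma again called 0 of the 10 genes and 0 of 4488 in all, and 191 genes in place of 106 had an unadjusted p under 0.05. None of the 18 alternatives by gene, nor the fit on every kept probe, called a member gene. Without the filter on dim probes, 47 of 46522 genes and unnamed probes passed (9 higher, 38 lower), none of them a member. That fit took in probes not above background, and 48672 of the 56605 probes were well above background on 0 arrays. Of 179 alternative values for the members' differences, 145 kept their sign and 34, none past the test, turned it. The scaling by the 75th percentile over all probes moved the median of all genes to 0.40 and the members' median to 0.35, and the series table moved it likewise (0.355). All 10 differences were positive in both. There Ctsa was at 0.32 and 0.32, Ctsc at 0.20 and 0.20, Ctsh at 0.12 and 0.11, Ctsz at 0.17 and 0.17, and Cst3 at 0.32 and 0.32. Quantile normalization put Ctsa at 0.011, and normexp put Lgmn at -0.0050. With the slide row as covariate, Ctsc was at 0.75, Ctsl at -0.13, Ctss at -0.042, Lgmn at -0.67 and Cst3 at 0.030. Slide row 2 held only C5a arrays, so these values are C5a 1 alone minus the mean of the untreated arrays. They rest on a single C5a array, and the effect of the row cannot be told apart from that of C5a 2 and 3. Without number 3 in both groups, an alternative added after seeing the data like normexp on median signals and the median of spots, Ctsc was at 0.36. When 1 sample was left out at a time, the members' median ran from -0.12 to 0.11. The differences then ran from -0.23 to 0.26 for Ctsa, -0.032 to 0.13 for Ctsb, -0.61 to 0.69 for Ctsc, -0.21 to 0.35 for Ctsd, -0.11 to 0.19 for Ctsl, -0.22 to 0.22 for Ctss, -0.57 to 0.046 for Ctsz, -0.47 to 0.65 for Lgmn and -0.18 to 0.14 for Cst3. Ctsh stayed negative in these, from -0.38 to -0.13. The cause of these shifts was not tested. The members were bright, so that detection limited only Ctsc on C5a 3 and the dimmer probes of Ctsh.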
